A study of Mus musculus with 8 samples.

Results

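The set described here holds 107 probes, 102 with a gene symbol, for 86 genes, and 5 without one. Its probes were higher in WT Foxp3+ than in WT Foxp3- thymocytes, and also higher in Foxp3- thymocytes of mice in which the E proteins E2A and HEB had been targeted. The members were chosen by measured values, the group means of the authors' processed log2 intensities, out of 14942 probes (0.716%). A probe had to be at least 1 log2 unit higher in WT Foxp3+ than in WT Foxp3- cells (difference D), at least 0.5 higher in KO Foxp3- than in WT Foxp3- cells (difference A), and under 0.5 apart in either direction between KO and WT Foxp3+ cells (difference B). Of the 326 probes that met the first condition, 32.8% were members, 127 changed by under 0.5 in both A and B, and 50 had A within 0.5 with B at or below the negative of that limit. Because all of these differences entered the choice, the members' own differences between groups are given below as descriptions, without a test.

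The samples were mouse thymocytes from 2 lines, both carrying the allele labelled Foxp3KI. The KO line is labelled E2Af/fHEBf/f/ER-Cre/Foxp3KI, that is, floxed alleles of E2A and HEB with a Cre whose activity depends on tamoxifen, and the WT line is labelled WT Foxp3KI. By the labels' growth protocol, mice of both kinds took tamoxifen by mouth, 3 mg each time for 4 doses within 10 days. The promoter that drives the Cre, the animals' age, and whether an array held 1 or several mice are not given in the labels. Cells were sorted as CD4+Foxp3+ (called Foxp3+) or CD4 single-positive Foxp3- (called Foxp3-), which gave KO Foxp3+, KO Foxp3-, WT Foxp3+ and WT Foxp3- groups of 2 Illumina bead arrays each.

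E proteins are basic helix-loop-helix transcription factors that bind short DNA motifs called E-boxes, and the Id proteins hold them in check by pairing with them. In the thymus they act at many steps of T cell development, including the choice between conventional and innate-like fates. Regulatory T (Treg) cells depend on the transcription factor Foxp3; they restrain immune responses and share part of their expression programme, such as receptors for cytokines and chemokines, with activated and effector T cells.

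On the background-corrected log2 scale, the median member lay 2.23 and 2.17 above the WT Foxp3- mean on the KO Foxp3+ arrays, 1.33 and 1.37 above it on the KO Foxp3- arrays, and 2.06 and 2.13 above it on the WT Foxp3+ arrays. KO Foxp3- cells thus sat between both kinds of Foxp3+ cell and WT Foxp3- cells on this measure. The median over members was 1.38 for A and 2.09 for D, and over all 13526 probes tested it was -0.01 for A and -0.07 for D. As folds, A ran from 1.46 to 25.04 with a median of 2.60, and D from 2.04 to 41.4 with a median of 4.27. All 107 members were detected on both arrays of the KO Foxp3+, KO Foxp3- and WT Foxp3+ groups, where detection means a detection p under 0.05. In WT Foxp3- cells 103 were detected on both arrays, Plscr1 and Pde2a on 1, and Lag3 and Gpr34 on none. In a bulk sample, more cells that express a gene and more RNA per cell cannot be told apart.

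**Figure D1:**
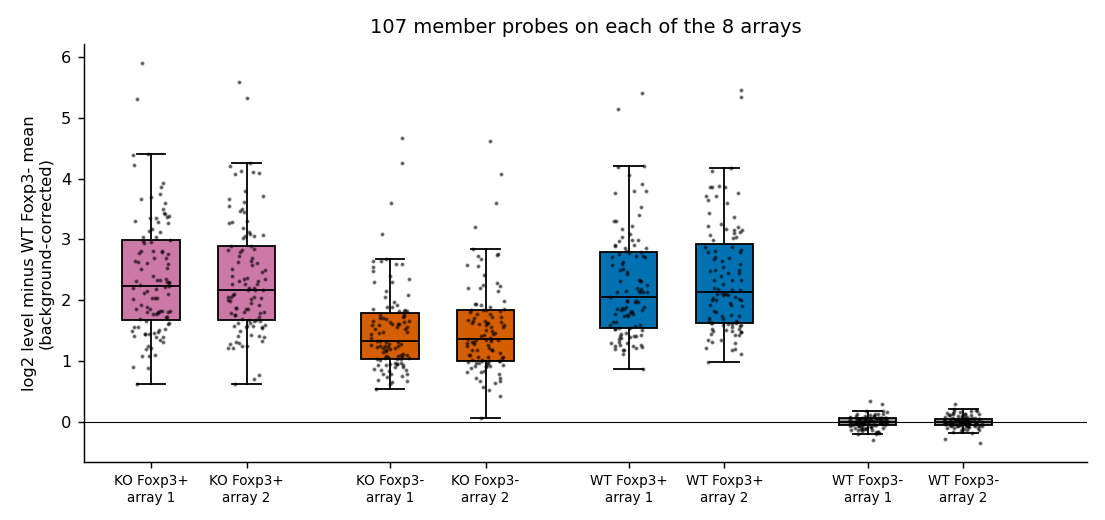
Each point is 1 of the 107 members on 1 of the 8 arrays, as its background-corrected log2 level minus the mean of the 2 WT Foxp3- arrays, with a box from the first to the third quartile, a line at the median and whiskers to the farthest point within 1.5 box lengths. The medians on the KO Foxp3- arrays were 1.33 and 1.37, against 2.06 and 2.13 on the WT Foxp3+ arrays.

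On the background-corrected scale the KO Foxp3- arrays lay above both WT Foxp3- arrays for 106 of 107 members, and over all tested probes this held for 32.0%; the rule fixed this direction. Actb, which encodes beta-actin, was the exception, with 12.84 and 11.87 in KO Foxp3- and 12.15 and 11.47 in WT Foxp3- cells, so that its arrays overlapped. KO Foxp3- cells stayed below both WT Foxp3+ arrays for 92 members (32.1% of all tested probes), lay above both for 8 (38.3% of all tested probes) and overlapped for 7. Within KO mice, Foxp3+ cells were above Foxp3- cells on all arrays for 93 members (28.3% of all tested probes), below for 6 (32.8%) and overlapping for 8. KO and WT Foxp3+ arrays overlapped for 56 members and did not for the other 51, and 48.6% of all tested probes did not overlap in this comparison. The median SD between the 2 arrays over members was 0.132 in KO Foxp3+, 0.0699 in KO Foxp3-, 0.105 in WT Foxp3+ and 0.0771 in WT Foxp3- cells.

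As a ratio on the authors' log2 scale, A over D ran from 0.276 to 2.22 with a median of 0.580. It was at least 1 for 10 members, between 0.5 and 1 for 65 and under 0.5 for 32. A itself was at least 1 for 41 members and at least 2 for 5, which were Ccl5, the unnamed probe ILMN_2725927, Casp1, Golm1 and Rgs1. At the limits of the rule, S100a11 and H2-K1 entered with D of 1.002 each, while Tagap and Slc39a4 stayed out at 0.999 and 0.994. Dhrs7 and Dbndd2 entered with A of 0.502 and 0.505, while Fam169b and Glrx stayed out at 0.499 and 0.494. Trf and S100a6 entered with B of -0.45 each, while Ly6c1 and Sqle stayed out at -0.51 and 0.51.

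**Figure D2:**
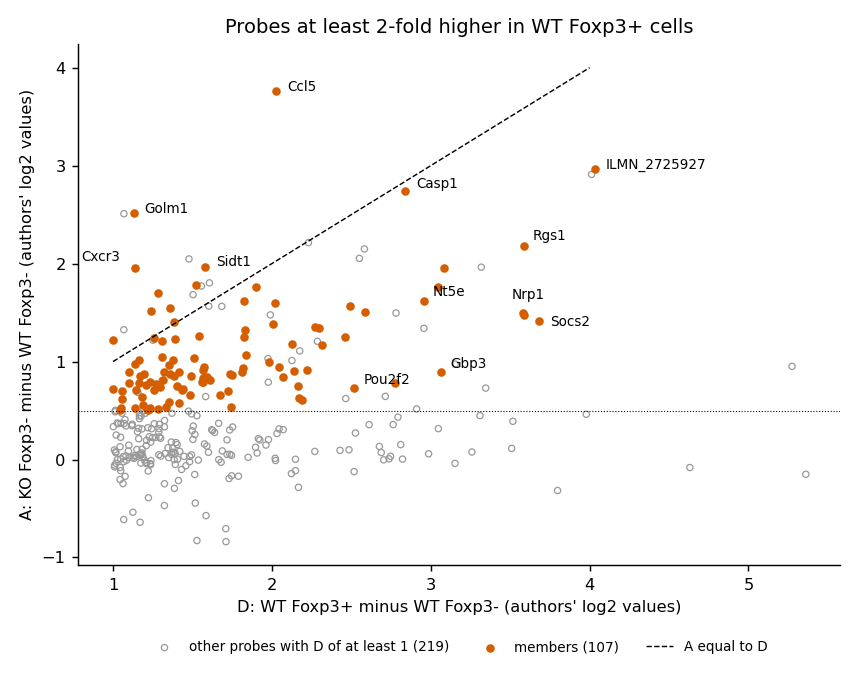
Each point is 1 of the 326 probes with D of at least 1, with D on the x axis and A on the y axis, both as differences of the authors' log2 values; filled points are the 107 members and open points the other 219, the dashed line marks A equal to D and the dotted line A of 0.5. Ccl5, Golm1, Cxcr3 and Sidt1 are among the 10 members at or above the dashed line, while Gbp3 and Pou2f2 lie far below it with ratios of 0.29 and 0.29.

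The member with the largest A was Ccl5, a chemokine secreted by effector T cells and natural killer (NK) cells. Its log2 level was 9.74 and 8.32 in KO Foxp3+ cells and 11.37 and 11.32 in KO Foxp3- cells, against 9.56 and 9.41 in WT Foxp3+ cells and 6.73 and 6.67 in WT Foxp3- cells. KO Foxp3- cells were thus the highest group and 25.04-fold above WT Foxp3- cells, WT Foxp3+ cells were 6.89-fold above WT Foxp3- cells, and the 2 KO Foxp3+ arrays differed from each other more than those of any other group. Casp1, the inflammatory caspase that matures interleukin-1 beta and interleukin-18, measured 10.86 and 10.73 in KO Foxp3+ cells and 10.23 and 10.23 in KO Foxp3- cells, against 10.18 and 10.51 in WT Foxp3+ cells and 6.52 and 6.76 in WT Foxp3- cells. This was 12.1-fold in KO against WT Foxp3- cells, and the KO Foxp3- arrays lay within the range of the WT Foxp3+ arrays. Golm1, a Golgi membrane protein, measured 9.18 and 9.21 in KO Foxp3+ cells and 10.25 and 10.35 in KO Foxp3- cells, against 8.68 and 8.78 in WT Foxp3+ cells and 7.11 and 7.19 in WT Foxp3- cells. It was 8.85-fold higher in KO than in WT Foxp3- cells, and its KO Foxp3- arrays lay above all other arrays. Rgs1, a brake on G protein signalling downstream of chemokine receptors, had 3 member probes, the brightest of which measured 12.05 and 12.38 in KO Foxp3+ cells and 10.62 and 10.69 in KO Foxp3- cells, against 12.19 and 12.02 in WT Foxp3+ cells and 8.19 and 8.07 in WT Foxp3- cells, a fold of 5.75 for KO over WT Foxp3- cells. Here KO Foxp3- cells lay between WT Foxp3- cells and both Foxp3+ groups. Sidt1, a transmembrane protein of the SID family, measured 10.96 and 10.84 in KO Foxp3+ cells and 10.81 and 10.90 in KO Foxp3- cells, against 10.43 and 10.48 in WT Foxp3+ cells and 8.63 and 8.70 in WT Foxp3- cells. Cxcr3, a chemokine receptor of effector T cells, measured 8.93 and 8.65 in KO Foxp3+ cells and 9.57 and 9.46 in KO Foxp3- cells, against 8.30 and 8.80 in WT Foxp3+ cells and 6.72 and 7.05 in WT Foxp3- cells. Both had higher levels in KO Foxp3- than in WT Foxp3+ cells, without overlap of the arrays.

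**Figure D3:**
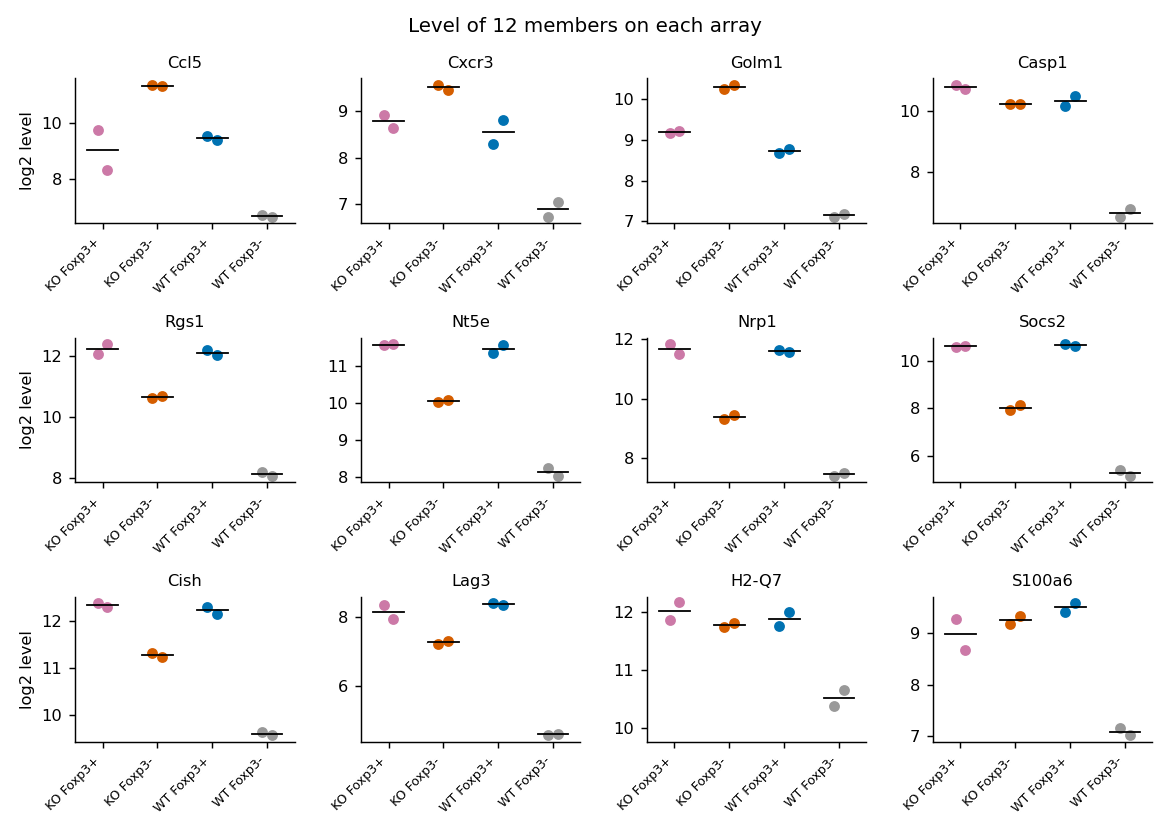
Background-corrected log2 level (y axis, scaled per panel) of 12 members in KO Foxp3+, KO Foxp3-, WT Foxp3+ and WT Foxp3- cells, with 1 point per array and a line at the mean of the 2 arrays. Ccl5, Cxcr3 and Golm1 were highest in KO Foxp3- cells, whereas Nrp1, Socs2 and Nt5e were 3.8, 6.68 and 3.77-fold above WT Foxp3- cells in KO Foxp3- cells and remained below both Foxp3+ groups.

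The promoters of the first 4 members by A that belong to a gene list and have a RefSeq promoter entry are shown because E proteins bind E-boxes; Ccl5 and Rgs1 have no entry in the table used. Each sequence runs 5′ to 3′ on the gene's strand, from 250 bases before to 50 bases after the start site, on build GRCm38.p6, and capitals mark E-boxes, written CANNTG, which reads the same on both strands. Casp1 lies at chr9:5298267-5298566 on the plus strand, Cxcr3 at chrX:101734098-101734397 on the minus strand, Nt5e at chr9:88327359-88327658 on the plus strand and S100a6 at chr3:90612644-90612943 on the plus strand.
Casp1 promoter: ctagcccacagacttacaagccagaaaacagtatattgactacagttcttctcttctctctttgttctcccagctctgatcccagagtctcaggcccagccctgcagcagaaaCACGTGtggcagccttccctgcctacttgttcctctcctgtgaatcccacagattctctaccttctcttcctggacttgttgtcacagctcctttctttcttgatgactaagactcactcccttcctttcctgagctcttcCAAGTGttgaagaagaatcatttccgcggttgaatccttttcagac
Cxcr3 promoter: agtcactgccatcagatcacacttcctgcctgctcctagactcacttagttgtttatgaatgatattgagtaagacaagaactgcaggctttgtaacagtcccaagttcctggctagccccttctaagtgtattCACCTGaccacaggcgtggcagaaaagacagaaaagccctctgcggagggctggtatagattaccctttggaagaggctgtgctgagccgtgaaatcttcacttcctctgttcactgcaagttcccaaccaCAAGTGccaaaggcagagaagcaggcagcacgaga
Nt5e promoter: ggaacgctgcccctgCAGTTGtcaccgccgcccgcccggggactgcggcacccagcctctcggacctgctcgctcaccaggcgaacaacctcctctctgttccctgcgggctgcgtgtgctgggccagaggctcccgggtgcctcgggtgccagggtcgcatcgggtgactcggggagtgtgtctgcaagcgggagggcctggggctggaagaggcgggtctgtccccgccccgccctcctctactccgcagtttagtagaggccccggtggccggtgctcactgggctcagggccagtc
S100a6 promoter: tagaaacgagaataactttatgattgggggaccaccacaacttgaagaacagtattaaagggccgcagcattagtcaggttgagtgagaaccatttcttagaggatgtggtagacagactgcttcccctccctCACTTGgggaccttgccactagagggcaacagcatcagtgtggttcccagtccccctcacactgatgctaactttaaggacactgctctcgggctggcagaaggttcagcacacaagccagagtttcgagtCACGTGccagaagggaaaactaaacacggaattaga
The 4 windows held 2, 2, 1 and 2 E-boxes in that order. RefSeq entries were found for 62 of the 86 member genes, with 87 promoters in all, and 71.3% of these promoters held at least 1 CANNTG. The share was 72.6% in 106 promoters of genes whose probes had D of at least 1 and changed by under 0.5 in A and B, 65.2% in the promoters of the genes of the authors' table and 72.3% in all 32851 RefSeq promoters. CAGCTG was present in 21.8% of member promoters and 16.3% of all RefSeq promoters, CAGGTG or its complement CACCTG in 16.1% and 20.2%, and CATCTG or its complement CAGATG in 21.8% and 17.2%. In the same order of motifs, the shares were 15.6%, 18.5% and 12.1% for the genes of the authors' table. They were 15.1%, 21.7% and 14.2% for the genes with D of at least 1 and under 0.5 in A and B. All of these motifs are forms of CANNTG and were counted within it. A match is a description of the letters and not a binding site, and none of these shares was tested.

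Before the gene groups, the arrays were checked against their labels. Over all 13526 tested probes, limma called 21.2% between KO and WT Foxp3- cells, 3.86% between KO and WT Foxp3+ cells, 31.2% between WT Foxp3+ and WT Foxp3- cells and 24.1% between KO Foxp3+ and KO Foxp3- cells, at a Benjamini-Hochberg adjusted p under 0.05. The Foxp3 probe used was not detected on any Foxp3- array and was at least 24.4-fold higher in KO Foxp3+ than in KO Foxp3- cells and at least 34.0-fold higher in WT Foxp3+ than in WT Foxp3- cells; a second Foxp3 probe was detected on too few arrays to be tested. Between KO and WT Foxp3- cells, both below background, the difference of that probe was -0.11 (adjusted p = 0.759, limma). Tcf12, which encodes HEB, was lower in KO than in WT cells, with differences of -1.06 in Foxp3+ (adjusted p = 0.00364, limma) and -0.81 in Foxp3- cells (adjusted p = 0.00388, limma). Its RNA was thus 0.481-fold and 0.569-fold of the WT level, and whether its probe lies in the deleted part is not known from the files. Tcf3, which encodes E2A, was not analysed here. Between 11462 and 12540 of 25697 probes were detected per array. Replicate arrays correlated across probes at r of 0.988 to 0.996, with KO Foxp3+ cells the lowest. The codes of all 8 arrays share 1 number and end in a letter from A to H. The letters follow the order of the groups, so letter and group cannot be told apart.

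Markers of other cell types moved with the groups. The summed background-corrected intensity of 9 myeloid or dendritic cell markers was 3185 to 3356 in KO Foxp3+, 387 to 413 in KO Foxp3-, 9298 to 10050 in WT Foxp3+ and 168 to 192 in WT Foxp3- cells, and Lyz1, Lyz2, C1qa and C1qb were called higher in KO than in WT Foxp3- cells; 5 of the 9 were detected on both KO Foxp3- arrays and 3 on both WT Foxp3- arrays. Of 4 erythroid markers, 3 were detected on both KO Foxp3- arrays and 1 on both WT Foxp3- arrays. Their sum was 6397 to 9113, 1947 to 2264, 4808 to 5090 and 170 to 224 in the same order of groups, with Hba-a1 and Alas2 called higher in KO Foxp3- cells (3 higher and 1 lower at an unadjusted p under 0.05). For 7 granulocyte markers it was 1056 to 1719, 97.7 to 107, 11740 to 12270 and 113 to 170, and 0 of these were called between KO and WT Foxp3- cells by limma (0 higher and 1 lower at an unadjusted p under 0.05). For 4 NK or innate-like lymphocyte markers, among them Tyrobp, which is also in the myeloid sum, it was 349 to 960, 3414 to 3581, 698 to 842 and 888 to 938, with Nkg7 alone called higher in KO Foxp3- cells. For 6 T cell markers it was 25110 to 26880, 30620 to 31560, 29260 to 29650 and 42050 to 43670, with Cd2, Cd3e, Cd3g and Cd5 called lower in KO than in WT Foxp3- cells. For 8 Treg markers, Nrp1 among them, it was 20930 to 21280, 3665 to 3823, 19150 to 20830 and 3866 to 4078, and the 2 Foxp3- groups lay close together on this sum, although limma called Ctla4 higher and Gpr83 lower in KO than in WT Foxp3- cells and the member Nrp1 was higher. For 4 mature CD4 single-positive markers it was 11990 to 12420, 13790 to 15140, 9508 to 9801 and 9448 to 9591, with Klf2 and Il7r called higher in KO Foxp3- cells (2 higher and 1 lower at an unadjusted p under 0.05). For 6 immature thymocyte markers it was 1877 to 2669, 1837 to 1879, 1800 to 1924 and 2762 to 2851, and for 3 CD8 T cell markers 756 to 1271, 968 to 1041, 921 to 1100 and 1593 to 1611, with Cd8b1 called lower and Eomes and Gzmk called higher in KO Foxp3- cells. For 5 B cell markers it was 471 to 1045, 86.0 to 146, 558 to 609 and 67.0 to 88.4, and for 4 markers of thymic epithelium or stroma it stayed at or under 89.5 on every array, with Krt8 detected on none. The part of these cell types in the members' differences was not tested.

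**Figure D4:**
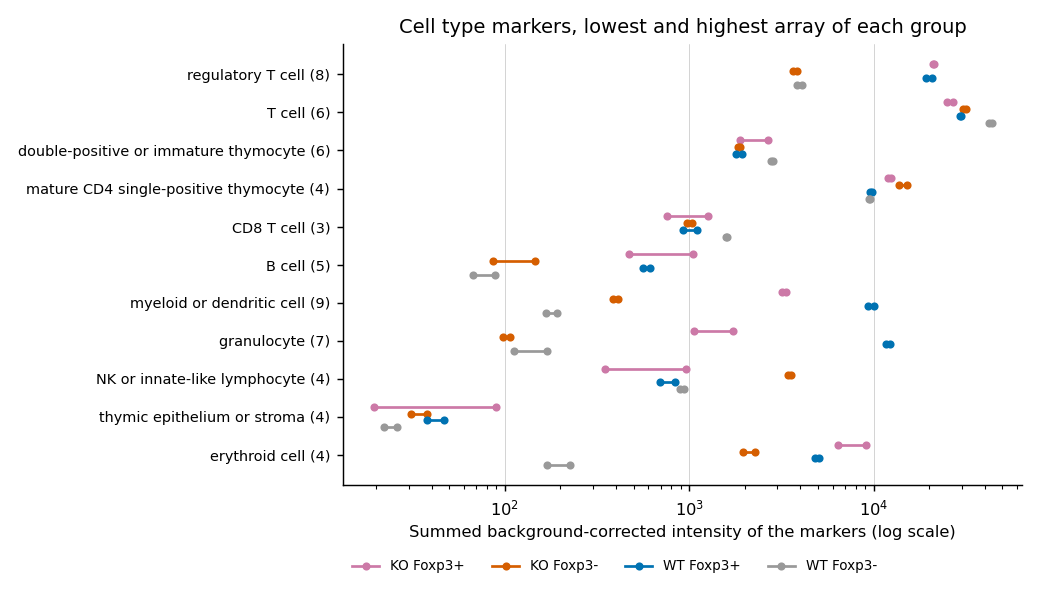
Summed background-corrected intensity (x axis, log scale) of the markers of 11 cell types, from the lower to the higher array of each group, with the number of markers that had a probe in parentheses. The sum of NK or innate-like markers, of which Nkg7 alone was called higher in KO than in WT Foxp3- cells, was highest in KO Foxp3- cells at 3414 to 3581. That of Treg markers was 3665 to 3823 in KO Foxp3- and 3866 to 4078 in WT Foxp3- cells.

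Treg identity genes made up 6 member genes. Nrp1, a semaphorin and VEGF co-receptor that marks thymus-derived Treg cells in mice, measured 11.84 and 11.52 in KO Foxp3+ cells and 9.30 and 9.44 in KO Foxp3- cells, against 11.64 and 11.57 in WT Foxp3+ cells and 7.39 and 7.49 in WT Foxp3- cells. KO Foxp3- cells were 3.8-fold above WT Foxp3- cells, while WT Foxp3+ cells were 17.9-fold above them, and a second Nrp1 probe gave 3.78 and 18.2. Nt5e encodes CD73, the ectoenzyme that makes adenosine, and its brighter probe measured 11.57 and 11.60 in KO Foxp3+ cells and 10.03 and 10.08 in KO Foxp3- cells, against 11.37 and 11.57 in WT Foxp3+ cells and 8.25 and 8.03 in WT Foxp3- cells. That is 3.77-fold for KO over WT Foxp3- cells and 10-fold for WT Foxp3+ over WT Foxp3- cells. Socs2, a feedback inhibitor of cytokine signalling, measured 10.60 and 10.62 in KO Foxp3+ cells and 7.94 and 8.14 in KO Foxp3- cells, against 10.70 and 10.64 in WT Foxp3+ cells and 5.42 and 5.17 in WT Foxp3- cells. It had the largest fold between WT Foxp3+ and WT Foxp3- cells of all members, 41.4, and was 6.68-fold higher in KO than in WT Foxp3- cells. Itgae, the integrin chain CD103 that binds E-cadherin, had 2 member probes with folds of 3.15 and 2.95 for KO over WT Foxp3- cells. Cst7, the protease inhibitor cystatin F, was 3.55-fold higher in KO Foxp3- cells, and Capg, which caps actin filaments, 1.99-fold. All 6 remained below WT Foxp3+ cells on every array. Of the 19 other Treg identity genes tested, limma called 15 higher in WT Foxp3+ than in WT Foxp3- cells and 1 lower, against 15.7% and 16.5% of the 9051 named genes that are no member genes. Between KO and WT Foxp3- cells it called 5 of the 19 higher and 6 lower, against 10.9% and 9.12% of named genes, with a median difference of 0.06. The 6 member genes, taken by the rule for being higher in KO Foxp3- cells, are left out here, which lowers the count called higher and the median. Among the 15, Ctla4, Il10, Cd83 and Ebi3 were higher in KO Foxp3- cells, Tnfrsf9, Tnfrsf4, Gpr83, Swap70 and Ikzf4 were lower, and Ikzf2, Foxp3, Tnfrsf18, Izumo1r, Il2ra and Klrg1 were not called. Of these 19, Fgl2, the fifth gene called higher, had the largest difference at 2.01 ± 0.31 (SE, adjusted p = 0.00378, limma), and Tnfrsf9, a costimulatory receptor, the lowest at -1.21 ± 0.14 (SE, adjusted p = 0.00106, limma). Ebi3 rose at least 1.59-fold and Cd83 1.95-fold in KO Foxp3- cells.

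Chemokine and effector genes held 2 of the members with the highest ratios of A to D on the authors' scale, Ccl5 at 1.86 and Cxcr3 at 1.71. Beside these, the list of innate-like and effector genes contained Prf1 and Il2rb. Prf1, the pore-forming protein of cytotoxic cells, measured 10.36 and 9.57 in KO Foxp3+ cells and 9.90 and 9.94 in KO Foxp3- cells, against 10.24 and 10.29 in WT Foxp3+ cells and 8.74 and 9.15 in WT Foxp3- cells. KO Foxp3- cells were 1.97-fold above WT Foxp3- cells, and the 2 KO Foxp3+ arrays lay on either side of the KO Foxp3- arrays. Il2rb, the chain shared by the interleukin-2 and interleukin-15 receptors, measured 8.76 and 8.71 in KO Foxp3+ cells and 7.70 and 7.46 in KO Foxp3- cells, against 8.95 and 8.89 in WT Foxp3+ cells and 6.44 and 6.43 in WT Foxp3- cells. It was 2.21-fold higher in KO than in WT Foxp3- cells and stayed below both Foxp3+ groups. Of the 23 other genes of this list, limma called 15 higher in KO than in WT Foxp3- cells and 0 lower (17 and 1 at an unadjusted p under 0.05), against 10.9% and 9.12% of named genes, with a median difference of 1.05. Gzmk, a granzyme, was at least 6.11-fold higher (adjusted p = 4.26e-06, limma), Ifng, which encodes interferon gamma, 7.76-fold (adjusted p = 1.25e-05, limma), Nkg7, a cytotoxic granule protein, 5.30-fold (adjusted p = 0.00524, limma) and Il18r1, a chain of the interleukin-18 receptor, 4.82-fold (adjusted p = 0.000202, limma). Gzmk and Nkg7 were not called between WT Foxp3+ and WT Foxp3- cells (adjusted p = 0.998 and 0.864, limma). The NK or innate-like marker sum given above was highest in the same KO Foxp3- arrays. That sum shares Nkg7, Klrd1 and Klrb1c with this list, so it is not a separate reading.

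The migration and adhesion list held 5 member genes, Ccl5, Cxcr3, Itgae, Nrp1 and Icam1. Icam1, the ligand of the integrin LFA-1, measured 10.23 and 10.15 in KO Foxp3+ cells and 9.46 and 9.38 in KO Foxp3- cells, against 10.31 and 10.17 in WT Foxp3+ cells and 8.47 and 8.38 in WT Foxp3- cells. It was 2-fold higher in KO than in WT Foxp3- cells, below both Foxp3+ groups, and was also the only member of the NF-kappaB list. Of the 26 other migration and adhesion genes, 13 were called higher and 2 lower in KO Foxp3- cells, against 10.9% and 9.12% of named genes, with a median difference of 0.53. The chemokine receptor genes Ccr6 and Cxcr5 rose 12.7-fold (adjusted p = 0.000248, limma) and 9.33-fold (adjusted p = 1.96e-05, limma), and both were also higher in WT Foxp3+ cells. Cxcr6 rose 4.42-fold and was lower in WT Foxp3+ than in WT Foxp3- cells, and the chemokine Ccl3 rose at least 3.68-fold. Of the 22 other NF-kappaB genes, limma called 7 higher and 0 lower (9 and 0 at an unadjusted p under 0.05), against the same shares of named genes. The largest differences were those of the inhibitors Tnfaip3 at 1.49 ± 0.21 and Nfkbib at 1.46 ± 0.12 on the log2 scale (SE, adjusted p = 0.00246 and 0.000232, limma), followed by Ikbkb, a kinase that activates the pathway, at 0.85 and the inhibitor Nfkbie at 0.80.

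Cytokine receptors and their signalling proteins gave 6 member genes. Cish, a feedback inhibitor of the SOCS family, measured 12.38 and 12.30 in KO Foxp3+ cells and 11.33 and 11.23 in KO Foxp3- cells, against 12.32 and 12.15 in WT Foxp3+ cells and 9.63 and 9.58 in WT Foxp3- cells. It was 3.2-fold higher in KO than in WT Foxp3- cells and 6.18-fold higher in WT Foxp3+ than in WT Foxp3- cells. Ifngr1, the ligand-binding chain of the interferon gamma receptor, measured 10.26 and 10.17 in KO Foxp3+ cells and 9.75 and 9.79 in KO Foxp3- cells, against 10.09 and 10.02 in WT Foxp3+ cells and 8.53 and 8.55 in WT Foxp3- cells. The KO Foxp3- arrays lay between the Foxp3+ groups and WT Foxp3- cells, 2.34-fold above the last. Stat4, which transmits interleukin-12 signals, had 2 member probes with folds of 2.18 and 1.79, and Il10rb, a chain of several receptors of the interleukin-10 family, was 2.31-fold higher. Socs2 and Il2rb, given above, complete this group. Among the 36 other genes of the list, 12 were called higher and 2 lower in KO Foxp3- cells, against 10.9% and 9.12% of named genes, with a median difference of 0.29. Il10ra, the other chain of the interleukin-10 receptor, rose 4.34-fold (adjusted p = 6.93e-05, limma), Socs3, another inhibitor of the SOCS family, rose 2.99-fold (adjusted p = 0.00026, limma), and Il18rap rose at least 1.65-fold.

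The lists of T cell receptor-induced genes and of the TNF receptor family gave 2 member genes each. Lag3, an inhibitory receptor that binds MHC class II, measured 8.32 and 7.93 in KO Foxp3+ cells and 7.22 and 7.29 in KO Foxp3- cells, against 8.38 and 8.34 in WT Foxp3+ cells and 4.61 and 4.64 in WT Foxp3- cells. It was not well above background on either WT Foxp3- array, and KO Foxp3- cells were at least 5.74-fold and WT Foxp3+ cells at least 12.3-fold above WT Foxp3- cells. Rgs1 was the other member of that list, and its 3 probes gave folds of 5.75, 6.29 and 5.21 for KO over WT Foxp3- cells. Tnfrsf25, the receptor of the cytokine TL1A, measured 10.74 and 10.88 in KO Foxp3+ cells and 10.45 and 10.30 in KO Foxp3- cells, against 10.83 and 10.73 in WT Foxp3+ cells and 9.25 and 9.35 in WT Foxp3- cells. Traf1, an adaptor of several TNF receptors, measured 10.35 and 10.46 in KO Foxp3+ cells and 9.56 and 9.66 in KO Foxp3- cells, against 10.51 and 10.46 in WT Foxp3+ cells and 8.67 and 8.65 in WT Foxp3- cells. In KO against WT Foxp3- cells these came to 2.1-fold and 1.94-fold, and the KO Foxp3- arrays lay below all Foxp3+ arrays for both genes. Of the 36 other T cell receptor-induced and costimulation genes, 9 were called higher and 8 lower in KO Foxp3- cells, and of the 28 other TNF receptor family genes and adaptors 8 were called higher and 6 lower. Of named genes, 10.9% were called higher and 9.12% lower. Slamf6, a surface receptor, rose 3.41-fold (adjusted p = 0.00278, limma), whereas Egr2, an immediate early transcription factor, fell to 0.560-fold (adjusted p = 0.00212, limma). Dusp4, a phosphatase of MAP kinases, differed by -1.07 (adjusted p = 0.0174, limma) and was not called without background correction. Tnfsf14 and Fasl, ligands of the TNF family, rose 4.34-fold (adjusted p = 0.000503, limma) and 4.23-fold (adjusted p = 0.000118, limma), and the receptor Tnfrsf14 rose 2.24-fold.

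Both inflammatory caspases of the survival and apoptosis list with a member probe lie side by side on chromosome 9 in RefSeq's gene table, with 0 coding genes between them. Beside Casp1, Casp4, which responds to bacterial lipopolysaccharide in the cytosol, had 2 member probes, of which the first measured 8.30 and 8.10 in KO Foxp3+ cells and 7.25 and 7.40 in KO Foxp3- cells, against 8.49 and 8.59 in WT Foxp3+ cells and 5.66 and 5.32 in WT Foxp3- cells. These came to 3.58-fold and 3.74-fold for KO over WT Foxp3- cells, below both Foxp3+ groups, whereas Casp1 reached the WT Foxp3+ level. Of the 20 other genes of that list, 3 were called higher and 6 lower in KO Foxp3- cells, against 10.9% and 9.12% of named genes. Those called higher included the pro-apoptotic Bcl2 family genes Bbc3, at 2.04-fold (adjusted p = 0.000686, limma), and Bik, at least 2.27-fold. Those called lower included Birc5, also a cell cycle gene, and the survival gene Bcl2l1, at 0.651-fold (adjusted p = 0.00956, limma). Among other neighbours, Apobec3, a cytidine deaminase that restricts retroviruses, and Cbx7, a Polycomb protein, were adjacent on chromosome 15, with folds of 1.83 and 2.62.

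The list of S100 proteins, annexins and cytoskeletal proteins gave 7 member genes. S100a6, a calcium-binding protein, measured 9.28 and 8.66 in KO Foxp3+ cells and 9.17 and 9.34 in KO Foxp3- cells, against 9.42 and 9.58 in WT Foxp3+ cells and 7.15 and 7.02 in WT Foxp3- cells. It was 4.51-fold higher in KO than in WT Foxp3- cells, and the KO Foxp3+ arrays lay below the WT Foxp3+ arrays. S100a11, another calcium-binding S100 protein, measured 11.79 and 11.88 in KO Foxp3+ cells and 12.38 and 12.46 in KO Foxp3- cells, against 12.03 and 12.37 in WT Foxp3+ cells and 11.15 and 11.19 in WT Foxp3- cells. Its KO Foxp3- arrays lay above all other arrays, and its fold over WT Foxp3- cells was 2.38. Myo1f, an unconventional myosin of leukocytes, measured 8.73 and 7.996 in KO Foxp3+ cells and 8.73 and 8.61 in KO Foxp3- cells, against 8.30 and 8.33 in WT Foxp3+ cells and 6.47 and 6.20 in WT Foxp3- cells. It was 5.06-fold higher in KO than in WT Foxp3- cells, and KO Foxp3- cells lay above both WT Foxp3+ arrays. Anxa2, which binds membranes in the presence of calcium, was 1.95-fold higher and Coro2a, an actin-binding coronin, 3.09-fold; Capg is given above. Of the 28 other genes of the list, 5 were called higher and 4 lower in KO Foxp3- cells, against 10.9% and 9.12% of named genes. Ahnak, a very large scaffold protein, rose 6.76-fold (adjusted p = 7.23e-05, limma) and S100a4 rose 5.03-fold (adjusted p = 0.000177, limma), while Arhgap20, a GTPase-activating protein, fell to 0.265-fold (adjusted p = 0.00479, limma) and Tln1, which links integrins to actin, to 0.412-fold (adjusted p = 0.00999, limma).

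Interferon response and antigen presentation genes contributed 5 member genes, and H2-Q8 is a further MHC class I member. H2-Q7, a nonclassical MHC class I gene of the Qa-2 antigen, measured 11.86 and 12.17 in KO Foxp3+ cells and 11.75 and 11.80 in KO Foxp3- cells, against 11.76 and 12.004 in WT Foxp3+ cells and 10.38 and 10.65 in WT Foxp3- cells. This was 2.39-fold for KO over WT Foxp3- cells, and the KO Foxp3- arrays overlapped the WT Foxp3+ arrays. The classical class I genes H2-D1 and H2-K1 were 2.1-fold and, by 2 probes, 2.03-fold and 1.96-fold higher, and H2-Q8 2.77-fold. These class I genes are close copies of each other, so a probe may read more than 1 of them. Gbp3, an interferon-induced guanylate-binding protein, measured 11.37 and 11.51 in KO Foxp3+ cells and 8.83 and 8.93 in KO Foxp3- cells, against 11.11 and 11.42 in WT Foxp3+ cells and 7.71 and 7.71 in WT Foxp3- cells. WT Foxp3+ cells were 11.7-fold and KO Foxp3- cells 2.25-fold above WT Foxp3- cells, among the lowest ratios of A to D. Ly6e, an interferon-induced surface protein, was 1.73-fold higher in KO than in WT Foxp3- cells. Of the 30 other genes of the list, 7 were called higher and 2 lower in KO Foxp3- cells, against 10.9% and 9.12% of named genes. Isg15, a ubiquitin-like interferon-response protein, fell to 0.431-fold (adjusted p = 0.000202, limma), whereas the MHC class II genes H2-Ab1, H2-Aa and H2-Eb1 had differences of 1.54, 1.48 and 1.28 (adjusted p = 0.011, 0.0133 and 0.00918, limma). With the authors' processed values these 3 class II genes were not called, and in WT Foxp3+ cells, where the myeloid or dendritic marker sum was highest, they differed from WT Foxp3- cells by 4.78, 4.23 and 4.51.

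Of the 86 member genes, 32 belonged to at least 1 list and the rest to none. Several genes in no list are given next, picked after their values were seen for what they encode. The transcription factor genes Cebpb, Nfil3, Pou2f2 and Rarg were 3.17-fold, 2.92-fold, 2.43-fold and 2.45-fold higher in KO than in WT Foxp3- cells. In WT Foxp3+ cells they were 6.54-fold, 14.2-fold, 11.1-fold and 4.34-fold above WT Foxp3- cells, so that KO Foxp3- cells covered a smaller part of the distance for Nfil3 and Pou2f2 than for Cebpb. Tlr1 and Nod1, pattern recognition receptors, were 2.51-fold and 1.9-fold higher, and Ncf4, a subunit of the phagocyte NADPH oxidase, 3.18-fold. Myeloid cells also express several of these genes, and their marker sum was 387 to 413 in KO Foxp3- and 168 to 192 in WT Foxp3- cells; its part in these differences was not tested. Tiam1, an exchange factor for Rac, was 1.62-fold higher, with a D of 5-fold. Gpr34, a G protein-coupled receptor, was not well above background in WT Foxp3- cells and at least 2.48-fold higher in KO Foxp3- and 6.29-fold higher in WT Foxp3+ cells. Glipr2, a Golgi-associated protein, measured 10.75 and 10.76 in KO Foxp3+ cells and 10.25 and 10.26 in KO Foxp3- cells, against 10.60 and 10.81 in WT Foxp3+ cells and 8.43 and 8.40 in WT Foxp3- cells, which is 3.59-fold for KO over WT Foxp3- cells. The unnamed probe ILMN_2725927 measured 11.88 and 11.58 in KO Foxp3+ cells and 10.24 and 10.06 in KO Foxp3- cells, against 11.13 and 11.44 in WT Foxp3+ cells and 5.97 and 5.99 in WT Foxp3- cells. It had the second largest A of all members, 18-fold on the background-corrected scale, and 4 further unnamed probes had folds of 6.46, 6.34, 3.34 and 1.69.

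Among member genes, 14 had at least 2 member probes. Each of these probes had to pass the rule, so their shared direction was fixed by the choice and is no check of 1 probe by another. Adgre5, which encodes the adhesion receptor CD97, had 3, and all of these had similar levels in KO Foxp3+, KO Foxp3- and WT Foxp3+ cells; the first measured 11.32 and 11.38 in KO Foxp3+ cells and 11.48 and 11.38 in KO Foxp3- cells, against 10.99 and 11.48 in WT Foxp3+ cells and 9.77 and 9.81 in WT Foxp3- cells. Folds of KO over WT Foxp3- cells were 3.12, 2.84 and 3.11 for the 3 Adgre5 probes. For Phf11a, of the PHD finger family, they were 2.93 and 2.73, for Sdcbp2, a syntenin, 3.41 and 3.59, and for Dennd5a, which activates Rab GTPases, 2.26 and 2.25. For Vars, a valyl-tRNA synthetase, they were 2.04 and 1.98, and for Srgn, the core protein of a granule proteoglycan, 1.82 and 1.55. The 2 Gbp3 probes gave 2.25 and 2.07, and the 2 Nt5e probes 3.77 and 4.19.

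Member genes had 30 further probes, for 21 genes, that the rule was also applied to and did not take. They read the same RNA on the same arrays as the members, so their values are a description, without a test. The other Golm1 probe measured 9.13 and 8.96 in KO Foxp3+ cells and 9.98 and 10.08 in KO Foxp3- cells, against 8.34 and 8.35 in WT Foxp3+ cells and 6.70 and 6.74 in WT Foxp3- cells. It was 9.92-fold higher in KO than in WT Foxp3- cells, with the same order of groups as the member probe, and stayed out with B of 0.567 on the authors' scale. The 4 other Itgae probes differed by 2.56, 2.45, 1.75 and 0.68 on the background-corrected log2 scale between KO and WT Foxp3- cells, and by 0.88, 0.86, 0.73 and 0.38 between KO and WT Foxp3+ cells. A further Prf1 probe was 2.7-fold higher in KO than in WT Foxp3- cells and differed by 0.08 between WT Foxp3+ and WT Foxp3- cells, where the member probe was 2.49-fold higher. Plscr1, Rarg and Glipr2 each had another probe that was 2.93-fold, 2.4-fold and 2.09-fold higher in KO than in WT Foxp3- cells. For the other probes of Syt11, Vars and Tnfrsf25 this difference was -0.14 and 0.04, -0.34 and 0.28. Of the 4 other Actb probes, the 2 detected on all 8 arrays gave -0.77 and -0.32, opposite to the member probe. The remaining 2 gave 0.10 and 0.02 and were not detected on any Foxp3- array. Probes of 1 gene thus did not always give the same difference.

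No member belonged to the lists of E proteins, Id proteins and T lineage regulators or of cell cycle genes. Of the 31 tested genes of the first list, 2 were called higher and 6 lower in KO Foxp3- cells, against 10.9% and 9.12% of named genes. The 6 called lower included the floxed gene Tcf12, given above. Among them, Id3, an inhibitor of E proteins, was at 0.447-fold (adjusted p = 0.00499, limma) and Lef1, a transcription factor of T cells, at 0.626-fold (adjusted p = 0.0213, limma). Of the 27 cell cycle genes, 0 were called higher and 15 lower by limma (1 and 18 at an unadjusted p under 0.05), with a median difference of -0.55. Top2a, the topoisomerase of dividing cells, fell to 0.210-fold (adjusted p = 0.00247, limma), the mitotic kinase Cdk1 to 0.298-fold (adjusted p = 0.00511, limma), the replication factor Mcm7 to 0.370-fold (adjusted p = 0.00185, limma) and Birc5, which acts in cell division, to 0.322-fold (adjusted p = 0.00722, limma). Set beside these, 15 of 23 other innate-like and effector genes and 5 of 19 other Treg identity genes were called higher. Both counts leave out member genes, which the rule took for being higher in KO Foxp3- cells. These were 4 of 27 tested innate-like and effector genes and 6 of 25 tested Treg identity genes. The choice thus lowered such counts by unlike amounts, and the difference between lists was not tested.

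**Figure D5:**
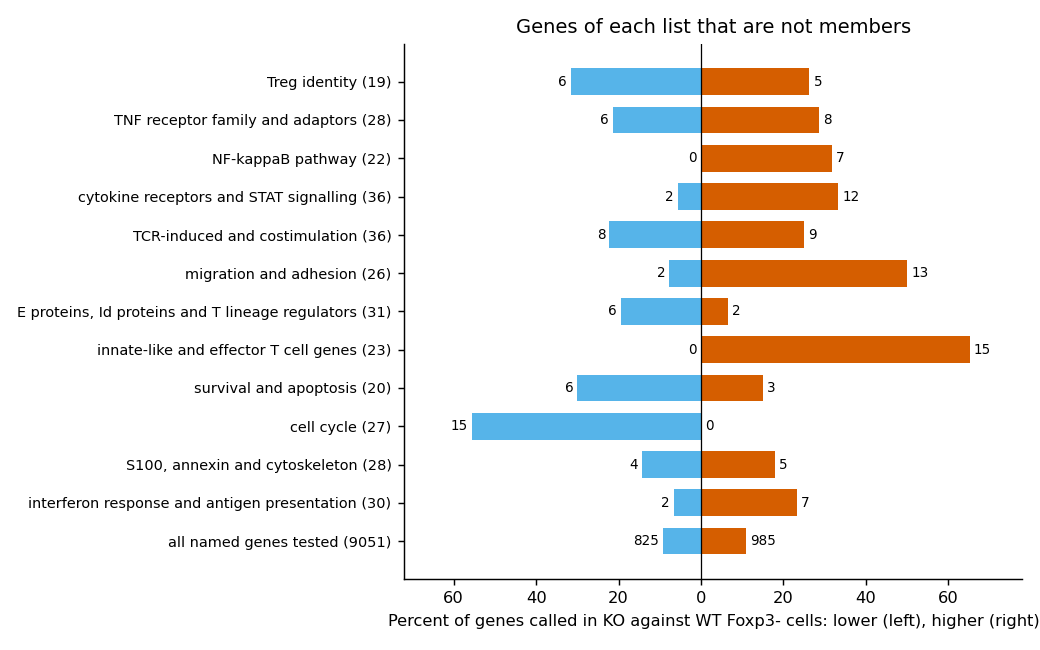
Bars give the percent of genes in each list, without the member genes, that limma called higher (right) or lower (left) in KO than in WT Foxp3- cells, with the number called beside each bar and the number tested in parentheses. Innate-like and effector genes had 15 of 23 called higher and cell cycle genes 15 of 27 called lower, against 985 higher and 825 lower of 9051 named genes.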

How the data were processed

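RNA from 8 thymocyte samples was read on Illumina bead arrays after amplification and biotin labelling, per the labels. The authors deposited a linear intensity for each probe and array with a detection p-value, which ranks the probe against negative controls. Their deposited table of processed log2 values held 14942 probes. Each of these had a detection p below 0.1 on 2 or more arrays, and quantile-normalizing log2 intensities, with no background subtracted, gave the same values to within 0.000675. The submitters' processing notes name GenomeStudio 2011.1; which settings it ran with is not given in the sources used here. Replicates are arrays, and the labels do not say whether they came from separate mice, so p-values measure only the spread between these arrays.

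The rule was applied to the authors' log2 values. All other levels came from the deposited intensities, background-corrected and quantile-normalized with neqc (limma 3.58.1, R 4.3.3, offset 16, control moments inferred from detection p-values). Testing was limited to 13526 of 25697 probes, those reaching a detection p below 0.05 on 2 or more of the 8 arrays. Group means were estimated with lmFit and eBayes over all 4 groups, with 4 residual and 3.99 prior degrees of freedom. P-values were two-sided and adjusted by Benjamini-Hochberg over all probes kept, and an adjusted p under 0.05 was a call. An exact permutation test of 2 against 2 arrays could not pass that threshold. Folds are 2 to the power of the log2 difference. If neither array of the lower group detected a probe, its fold is given as a bound, set against the higher of the lowest detected signal and the probe's own signal on each array. The number of arrays limits the precision.

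The platform's annotation named 14017 of the 14942 probes with 1 symbol and 0 with several, and 925 had none. A listed gene was read by its brightest probe. The members and the gene lists were chosen with earlier results of these data known. Named are the floxed and sorted genes, members in a list, the 15 members with the largest A, the 10 with the largest A over D, genes with several probes, the probes nearest each limit, and up to 4 other called genes per list with the largest difference. Promoters came from RefSeq (GRCm38.p6). The fit was tested on simulated data. Alternatives were the background correction, normalization, filter, variance trend, array weights, a replicate block, other limits of the rule and leaving out each array. The values of 1 listed member are not reported here.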

Additional observations from a re-analysis of the deposited data

Results flagged for a closer look

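For 12 named member probes, both KO arrays lay above both WT arrays in Foxp3- cells and below both WT arrays in Foxp3+ cells. The rule fixed the direction in Foxp3- cells, and the difference between the fractions was not tested. The genotype effect (KO minus WT) of the Foxp3+ fraction, less that of the Foxp3- fraction, was -2.87 for Lag3, -2.80 for Socs2, -2.70 for S100a6 and -1.61 for S100a11 on the background-corrected log2 scale. It was -2.18 for 1 Casp4 probe, -1.73 and -1.71 for the Phf11a probes, and -1.18 and -1.11 for the Vars probes. Among cytokine and TNF receptor genes it was -1.39 for Il10rb, -1.32 for Il2rb and -1.03 for Traf1. For S100a6 the KO minus WT differences were -0.52 in Foxp3+ and 2.17 in Foxp3- cells, while for Socs2 they were -0.06 and 2.74, so that the change of sign rests on a small difference in Foxp3+ cells. Over all members, named or not, 19 (17.8%) had this pattern of opposite directions without overlap, and 1168 of all tested probes (8.64%) did, in either direction. These 2 shares cannot be compared, because the rule chose members for being higher in KO Foxp3- cells. There 106 members lay above WT Foxp3- cells without overlap, against 32.0% of all tested probes.

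Of 308 tested listed genes that are no members, 39 showed the same pattern and 16 its reverse, also untested as a difference. Over all tested probes 8.64% had either pattern. The 2 directions were not counted apart there, so whether 39 against 16 is particular to the listed genes is not known. Values are given for the 8 of these 39 that were named for their difference between KO and WT Foxp3- cells. The difference between the fractions was -3.98 for Cxcr5, -3.16 for Ccl3, -2.58 for Socs3, -1.24 for Ebi3 and -1.23 for Cd83. For the MHC class II genes it was -2.47 for H2-Ab1, -2.23 for H2-Aa and -2.07 for H2-Eb1. The summed myeloid or dendritic cell markers moved the same way as these class II genes, with 3185 to 3356 in KO Foxp3+ against 9298 to 10050 in WT Foxp3+ cells and 387 to 413 in KO Foxp3- against 168 to 192 in WT Foxp3- cells, and their part in the result was not tested.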

How the results depend on the processing

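Membership depended on the scale of the values and on the limits. On the background-corrected values 275 probes met the rule, including 103 of the 107 members; S100a6, Trf, Coro2a and 1 Itgae probe did not. With A of at least 1 there were 41 members, and when each array was left out there were 104 to 118, with 79 members present in every such set. The median A over members was 1.38 with background correction and 0.89 on the authors' values. No difference A or D of a named member changed sign under any alternative run. The rule took members for positive A and D on these same arrays, so this was largely fixed in advance. The lowest A of any member when an array was left out, 0.06, was that of Actb without 1 KO Foxp3- array. The number of called probes between KO and WT Foxp3+ cells was 522, against 971 without background correction, 981 with the authors' values, 962 with a variance trend and 321 with array weights. When each array was left out, limma called 1115 to 3599 probes between KO and WT Foxp3- cells, 165 to 1038 between KO and WT Foxp3+ cells, 2371 to 4912 between WT Foxp3+ and WT Foxp3- cells and 1602 to 3171 between KO Foxp3+ and KO Foxp3- cells, where a lone array was assumed to vary like the other groups. Leaving out any of the 4 arrays compared moved the counts between KO and WT Foxp3- and between WT Foxp3+ and WT Foxp3- cells by over 1.5 times. The count between KO and WT Foxp3+ cells moved so without any single WT array or KO Foxp3+ array 2, and that between KO Foxp3+ and KO Foxp3- cells without either KO Foxp3- array. Deviations of same-numbered arrays correlated at -0.03 to 0.0998, so they shared little deviation. This cannot show whether same-numbered samples came from the same mice, which the labels do not say. With the replicate number as a block the counts of calls were 2604, 419, 3999 and 3058 in the same order of comparisons, against 2862, 522, 4224 and 3259 without it. Median scaling in place of quantile normalization called 926 higher and 1615 lower between KO and WT Foxp3- cells, against 1395 higher and 1467 lower. Of 47 tested differences of genes that are no members, 43 kept their call under every alternative that kept all arrays. The 47 were those of the other named genes between KO and WT Foxp3- cells, of Foxp3 between the fractions of each genotype, and of Tcf12 between KO and WT Foxp3+ cells. Dusp4, H2-Aa and H2-Eb1 lost their call between KO and WT Foxp3- cells without background correction and, with H2-Ab1, on the authors' values. Leaving out 1 array of this comparison also ended the call of Bcl2l1, Birc5, Cd8b1, Lef1, Nfkbie and Tln1, none of them a member. The cause of these shifts was not tested. Signal over background limits Lag3 and Gpr34, for which WT Foxp3- cells gave a bound alone.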
